A study of Mus musculus with 12 samples.

Results

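The genes described here are 10 members of the Hippo pathway: the kinases *Lats1* and *Lats2*, the coactivators *Yap1* and *Wwtr1* (the gene of the protein Taz), the DNA-binding factors *Tead1*, *Tead2*, *Tead3* and *Tead4*, and the target genes *Ctgf* and *Cyr61*, which current annotation calls *Ccn2* and *Ccn1*. They were picked by gene symbol, with no measured value in the rule, although earlier results of these data were known when the set was drawn up. All 10 were on the array, with 12 of its 33793 rows, and each gene was read from its brightest single-symbol row. Crypt-enriched tissue had been cut by laser from sections of proximal small intestine, and 1 Affymetrix Gene 2.0 ST array was hybridised per mouse. The 6 Zfp148gt/+APCMin/+ mice carried a gene trap, an insertion that truncates the transcript, in 1 copy of *Zfp148*, and were set against 6 Zfp148+/+APCMin/+ mice with both copies intact. Both groups carried the APCMin/+ allele, which predisposes mice to intestinal adenomas, so no mouse here had a normal *Apc* genotype. The mice were on a mixed genetic background, untreated and 12 weeks old. The trap is not limited to a cell type, and the labels do not say which controls are littermates of which mice.

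Hippo signaling is a kinase cascade that restrains tissue growth. Lats kinases, switched on by upstream kinases and scaffold proteins at cell junctions, phosphorylate Yap1 and Wwtr1 and keep them in the cytoplasm. Unphosphorylated Yap1 and Wwtr1 enter the nucleus, bind Tead factors and raise transcription of genes such as *Ctgf* and *Cyr61*. In the gut epithelium the pathway is best known for its part in regeneration after injury and in adenoma growth. Much of its control acts on phosphorylation and location of proteins, which RNA arrays do not read.

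The array readings are log2 signals, so a difference of 1 is a doubling. Array medians ran between 2.64 and 2.78. The interquartile range of an array was 2.82 or less in all Zfp148gt/+APCMin/+ mice but 911 (2.93). It was 2.92 or more in all Zfp148+/+APCMin/+ mice but 889 (2.80). Genotype and the spread of array signals can therefore not be fully told apart. Correlations of an array with the remaining ones had medians between 0.967 and 0.978, lowest for Zfp148gt/+APCMin/+ mice 891, 892 and 893. *Zfp148* itself averaged 5.45 ± 0.37 in Zfp148gt/+APCMin/+ mice and 6.34 ± 0.31 in Zfp148+/+APCMin/+ mice (SD, n = 6 each), and the groups did not overlap. The limma adjusted p of *Zfp148* was 0.676 (exact permutation p = 0.00216), so the trapped gene itself missed the adjusted threshold used for all genes here. A signal below 2.74, the 95th percentile of the rows of smell and pheromone receptor genes, was called dim. Of the markers of the labelled tissue, 8 of 9 crypt stem cell genes and all 6 Paneth cell genes lay above that mark. So did 8 of 9 measured villus markers, so these counts do not show how pure the crypt tissue was. By their means over all 12 mice, 9 of the 10 Hippo genes lay above that mark and *Lats2* lay below it. Bulk tissue was measured, so fewer cells of a type and less RNA per cell cannot be told apart.

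Promoter windows of 300 bases, 250 before and 50 after the annotated start, were matched in a RefSeq table of build GRCm38.p6 for 7 of the 10 genes, and *Tead1*, *Tead4* and *Ctgf* were not matched. Tead factors bind the letters GGAATG, which read CATTCC on the other strand. Those letters stood in 7 of the 11 windows of these genes, against 14.7% of all 32851 windows of the table. By gene, they stood in at least 1 window of 5 of the 7, *Yap1*, *Wwtr1*, *Tead3*, *Lats2* and *Cyr61*, against 16.6% of 27025 genes. Both *Wwtr1* windows overlap and hold the same site. The 3 *Tead3* windows also overlap, each with its neighbour. GC boxes, GGGCGG or CCGCCC, stood in 10 of the 11 windows, against 35.7% of all windows. Where windows overlap, the same GC boxes can be counted more than once, and no share by gene was taken for them. The AP-1 letters TGANTCA and the CArG box, the site of serum response factor, were in none of the 11, against 7.81% and 1.63% of all windows. Both strands were searched, and in the windows of these genes no Tead letters share a position with a GC box. Matched letters describe the sequence and are no evidence of binding. The windows printed are those of the coactivator *Yap1*, the kinase *Lats2*, the target *Cyr61* and the further target *Ajuba*, which had the smallest p-value of a wider target list, with the Tead letters in capitals. *Lats2* has a second window, at chr14:57734369-57734668, with neither Tead letters nor a GC box, which is not printed. They lie at chr9:8004547-8004846 for *Yap1*, chr14:57746074-57746373 for *Lats2*, chr3:145649936-145650235 for *Cyr61* and chr14:54577612-54577911 for *Ajuba*, all on the minus strand.
Yap1: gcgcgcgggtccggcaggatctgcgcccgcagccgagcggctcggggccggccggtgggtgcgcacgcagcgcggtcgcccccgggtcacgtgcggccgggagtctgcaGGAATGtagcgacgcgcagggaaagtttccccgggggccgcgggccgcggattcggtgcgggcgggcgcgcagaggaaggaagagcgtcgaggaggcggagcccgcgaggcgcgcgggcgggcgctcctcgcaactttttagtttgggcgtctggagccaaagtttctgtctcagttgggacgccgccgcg
Lats2: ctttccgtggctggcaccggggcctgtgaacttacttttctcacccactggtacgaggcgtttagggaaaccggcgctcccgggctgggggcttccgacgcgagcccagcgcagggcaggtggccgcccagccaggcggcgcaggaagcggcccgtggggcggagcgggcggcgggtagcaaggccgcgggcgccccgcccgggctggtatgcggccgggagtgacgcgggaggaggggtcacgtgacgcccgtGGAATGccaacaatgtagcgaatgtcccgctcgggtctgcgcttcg
Cyr61: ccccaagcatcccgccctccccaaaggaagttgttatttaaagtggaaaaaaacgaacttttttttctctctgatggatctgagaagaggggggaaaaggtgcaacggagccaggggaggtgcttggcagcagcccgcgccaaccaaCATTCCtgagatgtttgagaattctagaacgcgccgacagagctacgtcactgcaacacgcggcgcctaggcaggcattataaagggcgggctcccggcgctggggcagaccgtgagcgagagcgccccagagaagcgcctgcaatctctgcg
Ajuba: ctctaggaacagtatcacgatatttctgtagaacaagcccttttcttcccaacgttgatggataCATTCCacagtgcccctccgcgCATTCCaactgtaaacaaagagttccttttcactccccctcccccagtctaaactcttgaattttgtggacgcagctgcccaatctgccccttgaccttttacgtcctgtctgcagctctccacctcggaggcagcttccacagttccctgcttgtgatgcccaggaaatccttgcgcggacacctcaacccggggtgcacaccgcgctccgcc
Counted from the start, the letters begin at position -141 in *Yap1*, just inside the transcript at position 5 in *Lats2*, at -103 in *Cyr61*, and at -186 and -164 in *Ajuba*. The letters stood at 2 or more places in 1.33% of all windows, among them those of *Ajuba* and of the target *Ankrd1*, with 2 places each, and 1 of the 3 *Tead3* windows, with 3 places.

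The comparison of Zfp148gt/+APCMin/+ with Zfp148+/+APCMin/+ mice asks whether loss of 1 *Zfp148* copy goes with a changed level of these genes in crypt tissue. Of the 10 genes, 3 had a higher mean in Zfp148gt/+APCMin/+ mice, *Lats1*, *Yap1* and *Tead4*, and 7 had a lower mean. None passed the threshold of limma, an adjusted p under 0.05 over all 33793 rows, beside a background of 0% of rows, and the adjusted p of the 10 genes ran between 0.736 and 0.927. At an unadjusted limma p under 0.05 the count was also 0 of 10, beside 6.76% of all rows. That count was 2 after each array was centred on its median (*Tead2* and *Lats2*) and 2 after a second quantile normalization (*Yap1* and *Lats2*). It was 1 by the methods' t-test (*Lats2*) and 1 with the interquartile range of the array as a covariate (*Tead2*). The count was also 1 without mouse 892 (*Yap1*), without mouse 911, 885 or 895 (*Lats2*), and without mice 891, 892 and 893 together (*Yap1*). The genotypes overlapped for all 10 genes, where 0.308% of all rows did not overlap. One gene, *Lats2*, had an exact two-sided permutation p under 0.05, as had 7.06% of all rows. The median log2 difference of the 10 genes was -0.18, against 0.02 over all rows and -0.04 over the rows above the dim mark. With single mice left out the median of the 10 genes ran between -0.20 and -0.07, the smaller difference being that without mouse 895. A lower mean was found for 45.2% of all rows and for 58.6% of those above the dim mark. The 95% intervals of the 10 genes still allow levels in Zfp148gt/+APCMin/+ mice between 0.477 and 1.68 times those of Zfp148+/+APCMin/+ mice.

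**Figure D1:**
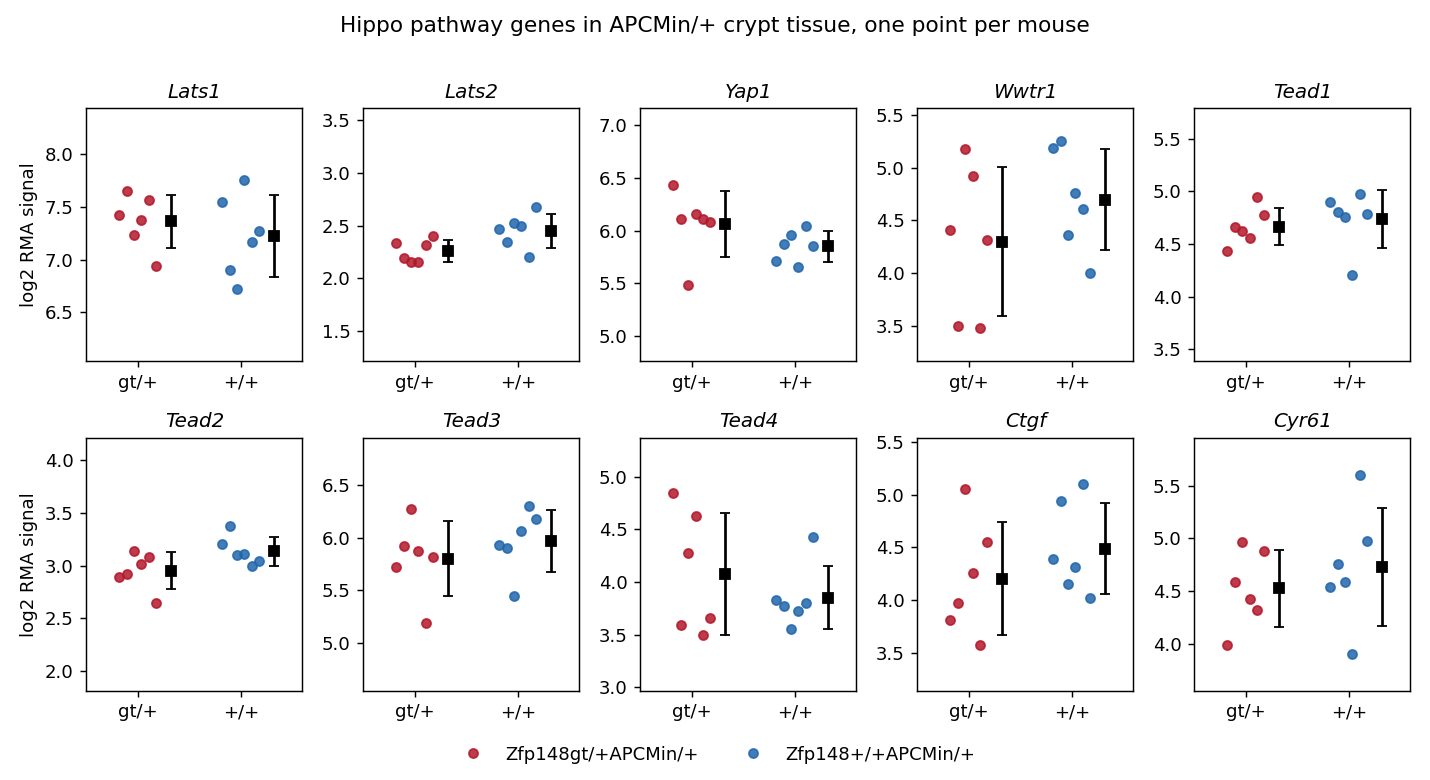
Log2 signal (vertical axis, each panel spanning the same range) of each Hippo gene in every mouse, Zfp148gt/+APCMin/+ in red on the left of each panel and Zfp148+/+APCMin/+ in blue on the right, with squares and bars for the mean and SD. The genotypes overlap in every panel, 5 of the 6 Zfp148gt/+APCMin/+ mice lie above all Zfp148+/+APCMin/+ mice for *Yap1*, and the points spread most for *Wwtr1*.

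*Lats1* encodes 1 of the 2 kinases that phosphorylate Yap1 and Wwtr1. Its signal ran between 6.94 and 7.65 with a median of 7.40 in Zfp148gt/+APCMin/+ mice, and between 6.72 and 7.76 with a median of 7.22 in Zfp148+/+APCMin/+ mice. Every Zfp148gt/+APCMin/+ mouse lay within the range of the Zfp148+/+APCMin/+ mice, in which both the lowest and the highest value occurred. The log2 difference was 0.14 (95% interval -0.25 to 0.52, limma adjusted p = 0.890, exact permutation p = 0.481), and it ran between 0.03 and 0.24 with single mice left out, lowest without mouse 888 and highest without mouse 889.

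*Lats2*, the second kinase and itself a known target of Yap1, was dim. It ran between 2.15 and 2.40 with a median of 2.25 in Zfp148gt/+APCMin/+ mice, against 2.20 to 2.67 with a median of 2.48 in Zfp148+/+APCMin/+ mice. Mice 891, 892 and 893, the 3 arrays of lowest correlation, lay below all Zfp148+/+APCMin/+ mice, and the other 3 lay among the lower values of that group. The difference was -0.19 (95% interval -0.40 to 0.0058), a ratio of 0.874, with an exact permutation p of 0.0390 and a limma adjusted p of 0.736. With each mouse left out in turn the exact permutation p ran between 0.0108 and 0.0779 and was 0.05 or more in 7 of the 12 fits, those without Zfp148gt/+APCMin/+ mouse 891, 892 or 893 or without Zfp148+/+APCMin/+ mouse 782, 888, 889 or 899. Without mice 891, 892 and 893 together the difference was -0.10 and the exact permutation p was 0.369. With the interquartile range of the array as a covariate the *Lats2* difference was -0.10 and the unadjusted limma p was 0.456.

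*Yap1*, the coactivator that Lats kinases hold back, had the most uneven split of mice. Its signal ran between 5.48 and 6.44 with a median of 6.11 in Zfp148gt/+APCMin/+ mice, and between 5.65 and 6.04 with a median of 5.87 in Zfp148+/+APCMin/+ mice. Of the Zfp148gt/+APCMin/+ mice, 5 lay above every Zfp148+/+APCMin/+ mouse and 1, mouse 892, lay below every one of them. The difference was 0.21 (95% interval -0.08 to 0.51), a ratio of 1.16, with a limma adjusted p of 0.778 and an exact permutation p of 0.154. Without mouse 892 the difference was 0.33 and the genotypes no longer overlapped, with an exact permutation p of 0.0043 and a limma adjusted p of 0.798. Mouse 892 had the lowest array correlation, 0.967, and leaving it out was 1 of 12 such fits. The exact permutation p was 0.05 or more in each of the other 11, with a highest value of 0.303. A second, dim *Yap1* row had a difference of 0.06 and correlated with the first row at r = 0.235 over the 12 mice.

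*Wwtr1*, the close relative of *Yap1*, varied most between mice of these 10 genes. It ran between 3.48 and 5.18 with a median of 4.36 in Zfp148gt/+APCMin/+ mice, against 4.004 to 5.25 with a median of 4.68 in Zfp148+/+APCMin/+ mice. Mice 891 and 897, at 3.49 and 3.48, lay below all Zfp148+/+APCMin/+ mice, and the other 4 were spread over the range of that group. The SD was 0.71 in Zfp148gt/+APCMin/+ mice and 0.48 in Zfp148+/+APCMin/+ mice. The median row of the array had an SD within a genotype of 0.243. That median takes in dim rows, since 49.3% of all rows lay above the dim mark, and is not matched to the signal of *Wwtr1*. The difference was -0.40 (95% interval -1.07 to 0.27), a ratio of 0.759, with a limma adjusted p of 0.803 and an exact permutation p of 0.279. With single mice left out it ran between -0.57, without mouse 892, and -0.23, without mouse 897.

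The 4 Tead genes encode the factors that bring Yap1 and Wwtr1 to DNA. *Tead1* ran between 4.44 and 4.94 with a median of 4.64 in Zfp148gt/+APCMin/+ mice and between 4.20 and 4.97 with a median of 4.79 in Zfp148+/+APCMin/+ mice. Its difference was -0.07 (95% interval -0.35 to 0.21, exact permutation p = 0.621), and mouse 889 alone set the low end of the Zfp148+/+APCMin/+ range. Every Zfp148gt/+APCMin/+ mouse lay inside that range. Without mouse 889 the difference was -0.18 and the exact permutation p 0.0779, and without mouse 783 or 895 the difference was -0.02.

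*Tead2*, known from early mouse embryos and progenitor cells, ran between 2.65 and 3.14 with a median of 2.97 in Zfp148gt/+APCMin/+ mice, against 2.995 to 3.38 with a median of 3.10 in Zfp148+/+APCMin/+ mice. Mice 783, 891 and 911 lay below every Zfp148+/+APCMin/+ mouse. The difference was -0.19 (95% interval -0.40 to 0.03), with an exact permutation p of 0.0628 and a limma adjusted p of 0.752. After each array was centred on its median, or quantile normalized once more, that permutation p was 0.0260 and 0.0303, and with single mice left out it ran between 0.0238 and 0.132.

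*Tead3* ran between 5.19 and 6.28 with a median of 5.84 in Zfp148gt/+APCMin/+ mice, against 5.45 to 6.30 with a median of 5.99 in Zfp148+/+APCMin/+ mice. Only mouse 897 lay below the Zfp148+/+APCMin/+ range, and the difference was -0.17 (95% interval -0.55 to 0.21, exact permutation p = 0.385), or -0.05 without that mouse and -0.27 without mouse 888. *Tead4*, known for its part in the outer layer of the early mouse embryo, was split within Zfp148gt/+APCMin/+ mice. It ran between 3.50 and 4.84 with a median of 3.97 in that group, and between 3.56 and 4.42 with a median of 3.79 in Zfp148+/+APCMin/+ mice. Mice 783 and 893 lay above all Zfp148+/+APCMin/+ mice and mouse 897 lay below them, and the SD was 0.58 in Zfp148gt/+APCMin/+ mice and 0.30 in Zfp148+/+APCMin/+ mice. The *Tead4* difference was 0.23 (95% interval -0.29 to 0.75, exact permutation p = 0.418). It was 0.08 without mouse 783 and up to 0.35 with another mouse left out, as without mouse 897.

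*Ctgf* and *Cyr61* encode secreted matricellular proteins and are the most used readouts of Yap1 and Wwtr1 activity. *Ctgf* ran between 3.57 and 5.05 with a median of 4.11 in Zfp148gt/+APCMin/+ mice, against 4.02 to 5.10 with a median of 4.35 in Zfp148+/+APCMin/+ mice. Mice 783, 891 and 897 lay below all Zfp148+/+APCMin/+ mice, whereas mouse 892 lay near the top of both groups. The difference was -0.29 (95% interval -0.84 to 0.26), a ratio of 0.820, with a limma adjusted p of 0.829 and an exact permutation p of 0.320. It ran between -0.46, without mouse 892, and -0.16, without mouse 897 or 895. The second *Ctgf* row, which was dim, had a difference of -0.01 and correlated with the first at r = 0.603 over the 12 mice.

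*Cyr61* ran between 3.99 and 4.96 with a median of 4.50 in Zfp148gt/+APCMin/+ mice, against 3.90 to 5.60 with a median of 4.68 in Zfp148+/+APCMin/+ mice. Both extremes belonged to Zfp148+/+APCMin/+ mice, 889 at the bottom and 895 at the top, and every Zfp148gt/+APCMin/+ mouse lay between them. Its difference was -0.20 (95% interval -0.73 to 0.33), a ratio of 0.869, with a limma adjusted p of 0.881 and an exact permutation p of 0.474. Without mouse 895 the difference was -0.03 and without mouse 889 it was -0.37, so single mice set its size.

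Markers of the tissue around the crypts mostly had lower means in Zfp148gt/+APCMin/+ mice. All 16 fibroblast markers had a lower mean in Zfp148gt/+APCMin/+ mice, with a median difference of -0.44, and 5 of them had an unadjusted limma p under 0.05, beside 2.88% of all rows in that direction. *Col1a2*, a collagen chain, had the smallest p, with a difference of -0.85. The mean signal of the fibroblast list ran between 5.92 and 6.54 in Zfp148gt/+APCMin/+ mice and between 6.34 and 7.04 in Zfp148+/+APCMin/+ mice. Of 10 smooth muscle markers 9 had a lower mean, with a median difference of -0.24, and the list ran between 5.38 and 5.85 in Zfp148gt/+APCMin/+ mice and between 5.14 and 6.10 in Zfp148+/+APCMin/+ mice. Of 12 endothelial markers 10 had a lower mean, with a median of -0.12 and list means of 3.28 to 3.75 in Zfp148gt/+APCMin/+ mice and 3.41 to 4.05 in Zfp148+/+APCMin/+ mice. With single mice left out the median ran between -0.53 and -0.32 for fibroblast, between -0.41 (without mouse 889) and -0.17 for smooth muscle, and between -0.23 (without mouse 889) and -0.02 (without mouse 782) for endothelial markers. No marker in these 3 lists passed the adjusted threshold, and all of them lay above the dim mark. The 10 epithelial markers stayed closer, with a median difference of -0.06 and list means of 9.52 to 9.82 in Zfp148gt/+APCMin/+ mice and 9.57 to 9.83 in Zfp148+/+APCMin/+ mice.

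With the mean of the stromal markers as a covariate, the estimates of *Wwtr1*, *Tead1*, *Ctgf* and *Cyr61* changed sign to 0.11, 0.09, 0.12 and 0.15, and that of *Lats1* to -0.18. The unadjusted limma p of these estimates ran between 0.334 (*Lats1*) and 0.740 (*Wwtr1*), so their new signs are not established. *Yap1* kept its sign at 0.17, *Tead4* at 0.36, *Tead2* at -0.12, *Tead3* at -0.11 and *Lats2* at -0.25. The median over the 10 genes was then 0.10, and none passed the adjusted threshold in that fit either. How far stromal RNA accounts for the lower means of *Wwtr1*, *Ctgf* and *Cyr61* was not tested beyond these values.

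**Figure D2:**
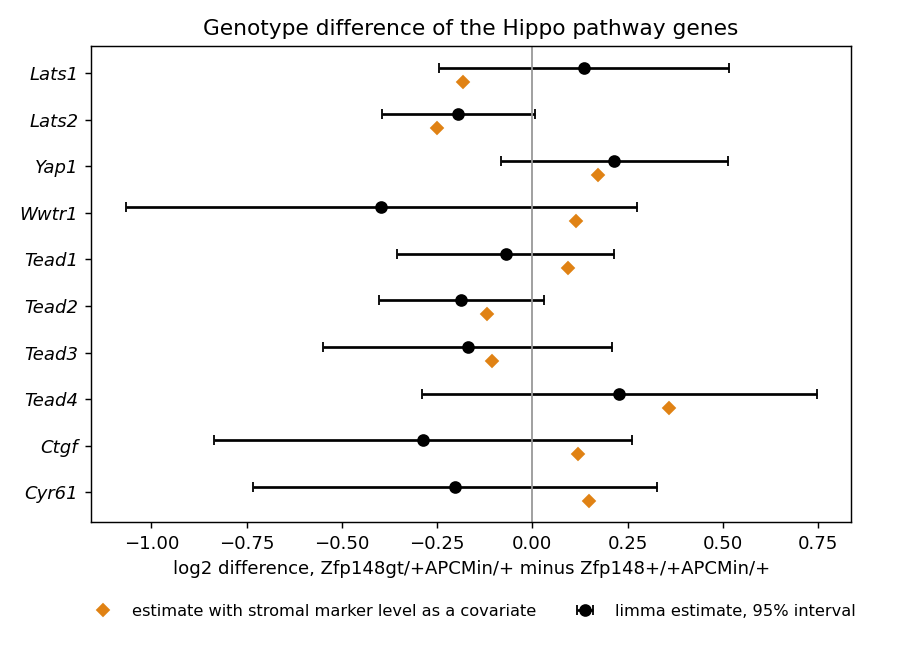
Log2 difference, Zfp148gt/+APCMin/+ minus Zfp148+/+APCMin/+ (horizontal axis), for each Hippo gene, with black circles and bars for the limma estimate and its 95% interval (n = 6 mice each) and orange diamonds for the estimate with the stromal marker level as a covariate. Every interval includes 0, and the diamonds of *Wwtr1*, *Tead1*, *Ctgf*, *Cyr61* and *Lats1* lie on the other side of 0 from the circles. No interval is drawn for the diamonds.

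Across the 12 mice, pairs of these genes were correlated to see which varied together. Of the 45 pairs among the 10 genes, 4 had a Pearson permutation p under 0.05, and all 4 involved *Ctgf* or *Cyr61*, but none passed Benjamini-Hochberg adjustment over the 45 pairs (lowest adjusted p = 0.222). By Spearman's rho 6 pairs had a permutation p under 0.05 and none passed the adjustment. Of these, *Ctgf* with *Wwtr1* and *Ctgf* with *Tead3* were among the 4 as well. The others were *Yap1* with *Tead2* (rho = -0.74, permutation p = 0.0075, r = -0.54), *Yap1* with *Tead3* (rho = -0.60, permutation p = 0.0433, r = -0.47), *Wwtr1* with *Tead2* (rho = 0.63, permutation p = 0.0330, r = 0.49) and *Lats1* with *Cyr61* (rho = -0.67, permutation p = 0.0216, r = -0.51).

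*Ctgf* tracked *Wwtr1* most closely, at r = 0.71 (permutation p = 0.0102) and rho = 0.68 (permutation p = 0.0184). Within genotypes r was 0.76 in Zfp148gt/+APCMin/+ mice and 0.54 in Zfp148+/+APCMin/+ mice. Without mice 891 and 897, the 2 farthest from the median of *Wwtr1*, r was 0.56 over the other 10 mice and its permutation p was 0.0936.

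*Ctgf* and *Tead3* had r = 0.68 (permutation p = 0.0148) and rho = 0.62 (permutation p = 0.0354), with 0.84 in Zfp148gt/+APCMin/+ mice and 0.37 in Zfp148+/+APCMin/+ mice. Without mice 888 and 897 r was 0.56. *Ctgf* and *Cyr61* themselves had r = 0.65 (permutation p = 0.0197) and rho = 0.58 (permutation p = 0.0513), with 0.83 in Zfp148gt/+APCMin/+ mice and 0.53 in Zfp148+/+APCMin/+ mice, and 0.37 without mice 892 and 895. *Tead1* and *Cyr61* had r = 0.68 (permutation p = 0.0166) and rho = 0.50 (permutation p = 0.0986), but r was 0.30 in Zfp148gt/+APCMin/+ mice against 0.82 in Zfp148+/+APCMin/+ mice and 0.29 without mice 783 and 889. Over the 10 mice that remained none of the 4 pairs had a permutation p under 0.05, and the r of *Tead1* with *Cyr61* and of *Ctgf* with *Cyr61* fell furthest.

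The r of *Yap1* with the targets had opposite signs in the 2 genotypes, but only 20 of all 45 pairs had 1 sign in both. With *Ctgf* the r of *Yap1* was -0.51 over the 12 mice (permutation p = 0.0875) and rho was -0.54 (permutation p = 0.0758). Within genotypes r was -0.80 in Zfp148gt/+APCMin/+ mice (exact permutation p = 0.0667) and 0.43 in Zfp148+/+APCMin/+ mice (exact permutation p = 0.381). Without mice 783 and 892 r was -0.18. With *Cyr61* r was -0.19 over all mice (permutation p = 0.563, rho = -0.30 with permutation p = 0.342), made up of -0.82 in Zfp148gt/+APCMin/+ mice (exact permutation p = 0.0417) and 0.84 in Zfp148+/+APCMin/+ mice (exact permutation p = 0.0361), and 0.30 without mice 783 and 892. These within-genotype p-values are not adjusted over the 45 pairs, and other pairs had smaller ones. *Lats2* with *Ctgf* had r = -0.96 in Zfp148+/+APCMin/+ mice (exact permutation p = 0.00139) and -0.33 in Zfp148gt/+APCMin/+ mice. *Tead1* with *Tead4* had r = -0.88 in Zfp148gt/+APCMin/+ mice (exact permutation p = 0.0111) and 0.16 in Zfp148+/+APCMin/+ mice. The difference between genotypes in these correlations was not tested.

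Levels of stromal markers varied with some of the same genes. Of 30 pairs of a Hippo gene with the mean of a stromal list, 5 had a Pearson permutation p under 0.05 and none passed adjustment over the 30 (lowest adjusted p = 0.107). *Cyr61* and smooth muscle markers had r = 0.73 (permutation p = 0.0071) and rho = 0.76 (permutation p = 0.0054), and r stayed at 0.67 without mice 885 and 889. Fibroblast markers had r = 0.71 with *Ctgf* (permutation p = 0.0101, rho = 0.67 with permutation p = 0.0197) and 0.54 without mice 891 and 897. With *Wwtr1* the fibroblast markers had r = 0.71 (permutation p = 0.0107, rho = 0.57 with permutation p = 0.0544), made up of 0.96 in Zfp148gt/+APCMin/+ mice and 0.27 in Zfp148+/+APCMin/+ mice, and 0.31 without the same mice. Smooth muscle markers and *Tead1* had r = 0.61 (permutation p = 0.0331, rho = 0.52 with permutation p = 0.0839), with opposite signs in the genotypes, -0.48 in Zfp148gt/+APCMin/+ mice and 0.91 in Zfp148+/+APCMin/+ mice, and 0.30 without mice 885 and 889. *Lats1* ran against fibroblast markers, at r = -0.60 (permutation p = 0.0391) and rho = -0.66 (permutation p = 0.0239), with -0.70 in Zfp148gt/+APCMin/+ mice, -0.65 in Zfp148+/+APCMin/+ mice and -0.45 without mice 891 and 897. Without the 2 mice farthest from the median of the marker list, only *Cyr61* with smooth muscle kept a permutation p under 0.05 (0.0287). That p was 0.110 for *Ctgf*, 0.393 for *Wwtr1* and 0.190 for *Lats1* with fibroblast markers, and 0.392 for *Tead1* with smooth muscle markers. With the genotype means removed none of the 45 or 30 pairs passed adjustment.

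**Figure D3:**
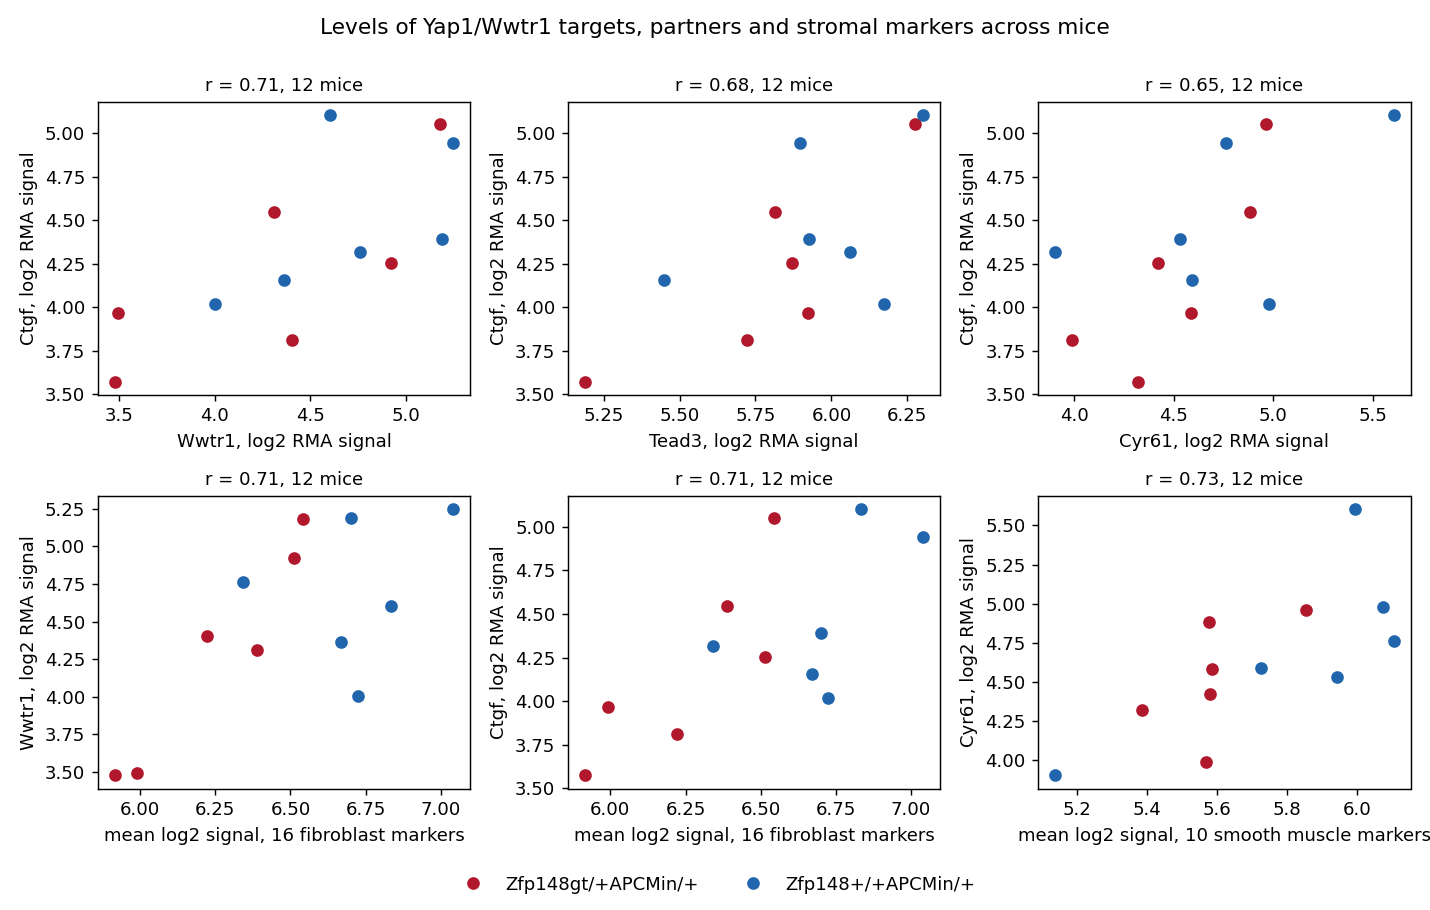
Log2 signal of a Hippo gene (vertical axes) against that of another gene or the mean of a stromal marker list (horizontal axes), 1 point per mouse, Zfp148gt/+APCMin/+ in red and Zfp148+/+APCMin/+ in blue, with Pearson's r over 12 mice above each panel. *Ctgf* is higher in mice with more *Wwtr1*, *Tead3*, *Cyr61* and fibroblast marker signal, with mice 891 and 897 at the low end of *Wwtr1* and of the fibroblast markers.

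For each gene, the 2 most alike of 12836 other genes were found by Pearson's r over the 12 mice, which describes these arrays only, since the highest of many correlations is high by selection. *Cyr61* was most like *Crim1* (r = 0.87), a gene of the Yap1 target list, and *Gcnt3* (0.86). *Ctgf* was most like *Gstm2* (0.90) and *Pcnx4* (0.89), *Wwtr1* like *Cbx5* (0.92) and *Izumo4* (0.91), and *Yap1* like *Asrgl1* (0.88) and *Tubgcp3* (0.86). Among the Tead genes, *Tead1* was most like *Me3* (0.89), *Tead2* like *Nrep* (0.91), *Tead3* like *Slc38a2* (0.90) and *Tead4* like *Gpr27* (0.90). *Lats1* was most like *Tmem250-ps* (0.87) and *Lats2* like *Rdh13* (0.89).

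Upstream of Lats, 30 of 35 listed genes were measured, of which 10 were on average higher and 20 lower in Zfp148gt/+APCMin/+ mice, with a median difference of -0.08. All 30 lay above the dim mark and none passed the adjusted threshold. *Frmd6*, whose protein acts at the membrane upstream of the kinases, was the 1 gene with an unadjusted limma p under 0.05, at 3.55 in Zfp148gt/+APCMin/+ mice and 3.33 in Zfp148+/+APCMin/+ mice, a difference of 0.22 (limma adjusted p = 0.727), and 3.88% of all rows passed in that direction. *Fat4*, an atypical cadherin, had the next smallest p, at 2.67 in Zfp148gt/+APCMin/+ mice and 3.04 in Zfp148+/+APCMin/+ mice. Genes of the core cassette are named here for their role, after their values were seen. The difference was 0.02 for the kinase *Stk4* (95% interval -0.33 to 0.37), 0.01 for its scaffold *Sav1* (-0.30 to 0.32), -0.19 and 0.05 for the Lats cofactors *Mob1a* (-0.48 to 0.10) and *Mob1b* (-0.29 to 0.40), and -0.20 for the tumor suppressor *Nf2* (-0.48 to 0.08).

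Other partners of Tead and Yap1 split evenly, with 5 of 11 measured genes higher and 6 lower, and at an unadjusted limma p under 0.05 there was 1 in each direction, beside 3.88% of all rows higher and 2.88% lower. *Runx3*, a Runt factor that can bind Tead and Yap1, had the smallest p. It averaged 3.003 in Zfp148gt/+APCMin/+ mice and 3.49 in Zfp148+/+APCMin/+ mice, with 5 of 6 Zfp148gt/+APCMin/+ mice below every Zfp148+/+APCMin/+ mouse, a difference of -0.48 (95% interval -0.82 to -0.15, limma adjusted p = 0.725). *Runx3* is expressed in lymphocytes. Among lymphocyte markers the difference was 0.05 for *Cd3e*, 0.15 for *Cd8a*, 0.40 for *Cd79a*, -0.27 for *Cd3g* and -0.05 for *Ms4a1*. Of all 11 immune markers measured 7 had lower means, with a median of -0.23 (-0.37 to -0.02 with single mice left out) and list means of 4.55 to 5.31 in Zfp148gt/+APCMin/+ mice and 4.52 to 5.28 in Zfp148+/+APCMin/+ mice. The part of immune cells in the *Runx3* value was not tested. *Tp73*, listed on the array as *Trp73*, was dim and averaged 2.76 in Zfp148gt/+APCMin/+ mice and 2.56 in Zfp148+/+APCMin/+ mice.

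Of 20 further target genes of Yap1 and Tead, 4 were on average higher and 16 lower in Zfp148gt/+APCMin/+ mice, with a median of -0.11, and none passed the adjusted threshold. At an unadjusted limma p under 0.05, 2 were lower, beside 2.88% of all rows, and 1 was higher, beside 3.88%. *Ajuba*, a LIM protein that restrains Lats kinases, averaged 2.13 ± 0.16 in Zfp148gt/+APCMin/+ mice and 2.57 ± 0.26 in Zfp148+/+APCMin/+ mice (SD, n = 6 each), ranging between 1.88 and 2.28 in Zfp148gt/+APCMin/+ mice and between 2.32 and 2.90 in Zfp148+/+APCMin/+ mice. The genotypes did not overlap, as for 0.0829% of all rows in that direction, and the difference was -0.44 (95% interval -0.71 to -0.16, limma adjusted p = 0.725), but the gene was dim. *Nuak2*, a kinase that feeds back on Yap1, averaged 3.55 in Zfp148gt/+APCMin/+ mice and 3.999 in Zfp148+/+APCMin/+ mice, a difference of -0.45 with the genotypes overlapping. *Crim1*, the gene most like *Cyr61*, had a difference of -0.25 (95% interval -0.70 to 0.20).

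Genes tied to Yap1 activity in regenerating or fetal-like mouse gut epithelium gave 3 higher and 5 lower means among 8 of 11 measured, with a median of -0.14 that turned to 0.07 without mouse 895. *Il1rn*, an antagonist of interleukin-1 signaling, averaged 2.98 in Zfp148gt/+APCMin/+ mice and 2.71 in Zfp148+/+APCMin/+ mice, and *Msln*, a surface protein, averaged 2.92 in Zfp148gt/+APCMin/+ mice and 2.63 in Zfp148+/+APCMin/+ mice. For each of these genes 4 of 6 Zfp148gt/+APCMin/+ mice lay above all Zfp148+/+APCMin/+ mice, with signals close to the dim mark and no adjusted p under the threshold. They were the 2 genes of this list with an unadjusted limma p under 0.05, beside 3.88% of all rows in that direction.

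**Figure D4:**
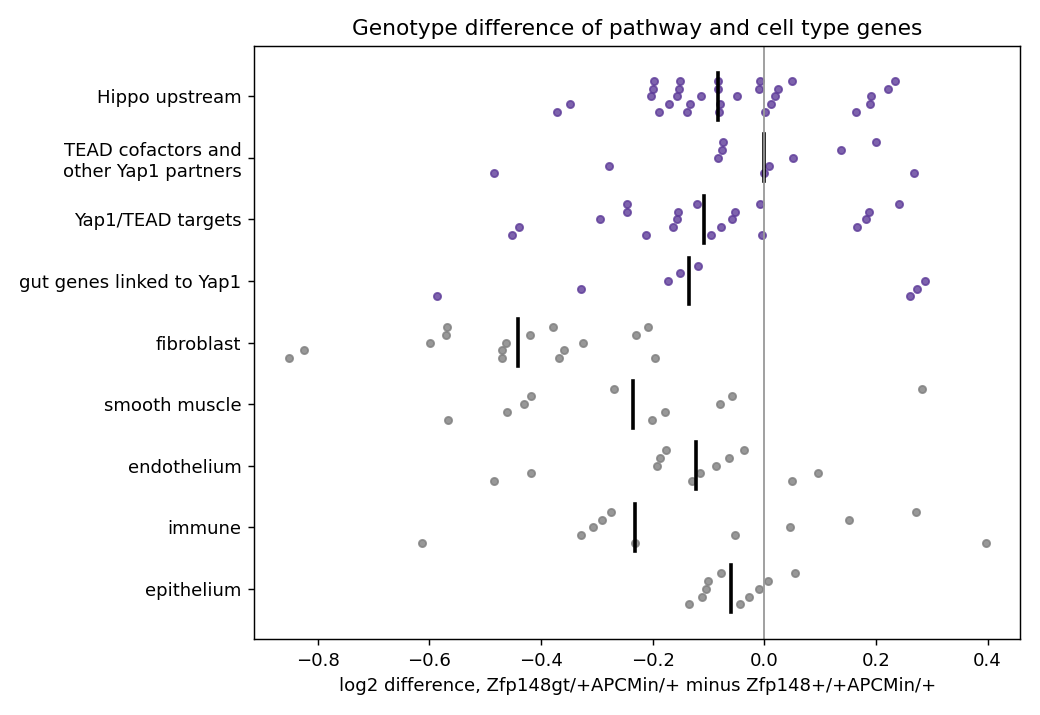
Log2 difference, Zfp148gt/+APCMin/+ minus Zfp148+/+APCMin/+ (horizontal axis), of each measured gene in 4 Hippo-related lists (purple) and 5 cell type lists (grey), with a black bar at each list's median. The medians of the Hippo-related lists lie between -0.14 and 0.00, and that of the fibroblast markers lies at -0.44.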

How the data were processed

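The authors normalized the arrays with RMA in Affymetrix Expression Console and deposited 1 log2 value per row and mouse. The log2 base was inferred from the range, 0.85 to 13.24. Software version and genome build: not given in the sources used here. Arrays have no read depth, and 6 mice a group limit the precision. Genotype and mouse number came from the labels, and p-values treat the mice as independent.

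Differences, Zfp148gt/+APCMin/+ minus Zfp148+/+APCMin/+, were fitted in R 4.3.3 by limma 3.58.1 (lmFit, then eBayes) and adjusted after Benjamini and Hochberg across all 33793 rows, as the methods name, and no filter on dim rows. Single genes were compared by exact two-sided permutation over the 924 assignments into 6 and 6, and correlations by 100000 permutations in Python 3.11.15. The smallest exact p for 6 against 6 is 0.00216. Array symbols named 23521 rows with 1 gene, 1820 had several and 8452 had none. The members and lists were chosen with earlier results of these data known. Besides the 10 genes and *Zfp148*, the text names the 2 genes of smallest p in a list and the 1 or 2 genes most alike in pattern. Outside those rules it names core Hippo genes and lymphocyte markers for their role, *Ankrd1* for its promoter, and rows that passed under an alternative. The fit was tested on simulated data. Alternatives were median centring, quantile normalization, a trended robust eBayes, weighted arrays, averaging a gene's rows, brighter rows only, the methods' t-test, stromal markers or the interquartile range as covariates, and leaving out mice.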

Additional observations from a re-analysis of the deposited data

Results flagged for a closer look

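In 22 groups of 6 mice, the highest and the lowest value were set against the others by Dixon's criterion, which chance exceeds in about 1 of 20 groups. *Tead1* in Zfp148+/+APCMin/+ mouse 889 was 4.20, below the other mice of its group by 0.718 of the group's range. The same mouse had the lowest *Cyr61* and *Yap1* signals of its group and the lowest smooth muscle marker mean of all 12 mice, 5.14. *Tead4* in Zfp148+/+APCMin/+ mouse 899 was 4.42, above the rest of its group by 0.680 of the range.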

How the results depend on the processing

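No Hippo gene passed the adjusted threshold under any alternative run. With stromal markers as a covariate the sign turned for *Wwtr1* (0.11), *Tead1* (0.093), *Lats1* (-0.18), *Ctgf* (0.12) and *Cyr61* (0.15). With the interquartile range of the array as a covariate it turned for *Tead1* (0.15), *Lats1* (-0.18) and *Cyr61* (0.0050), and after a second quantile normalization for *Tead1* (0.018). The cause was not tested. The other 5 genes kept their direction in all alternatives that gave a value, and keeping brighter rows only gave none for *Lats2*.

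The count of genes with an exact permutation p under 0.05 was 2 after median centring and 2 after quantile normalization (*Tead2* and *Lats2*), and 0 to 2 with single mice left out. The count with no overlap was 0 to 1 with single mice left out, the 1 being *Yap1* without mouse 892. Rows past the adjusted threshold numbered 0 to 1 with single mice left out, the 1 being *Olfr467* without Zfp148+/+APCMin/+ mouse 885. Leaving out mice 891, 892 and 893 together, chosen after seeing the data, gave 1 row past the threshold (*Rps13*), 1 Hippo gene with no overlap and 1 with an exact permutation p under 0.05, both *Yap1* (0.0119, the smallest possible), and a *Yap1* difference of 0.36. List medians under the alternatives were also added after seeing the data. With stromal markers as a covariate the median was 0.10 for the 10 Hippo genes. In that fit it was -0.14 for fibroblast, 0.08 for smooth muscle and 0.14 for endothelial markers. These markers themselves make up that covariate, so their medians there are partly fixed by construction and test nothing. With the interquartile range as a covariate the median was 0.16 for endothelial and 0.01 for epithelial markers. The paper states that controls were littermates, but the labels do not say which mice belong together, so no paired analysis was possible. The precision differs by gene: with 6 mice a group the 95% interval of the ratio was 0.477 to 1.21 for *Wwtr1* and 0.756 to 1.02 for *Tead2*.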
